A study of Arabidopsis thaliana with 48 samples.

Results

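The C-repeat binding factors of Arabidopsis thaliana, also called DREB1 factors, and ICE1, a factor that activates them, were followed through single and combined salt, high light and heat treatments. The members were taken by locus from both deposited expression tables, 7 of 32824 genes: CBF1 (AT4G25490), CBF2 (AT4G25470), CBF3 (AT4G25480), CBF4 (AT5G51990), DDF1 (AT1G12610), DDF2 (AT1G63030) and ICE1 (AT3G26744). CBF proteins are AP2/ERF transcription factors that bind the C-repeat, or dehydration-responsive element, in promoters of COR (cold-regulated) genes, whose products protect cells during freezing and water loss. CBF1, CBF2 and CBF3 are known for a fast, short-lived rise after a shift to the cold, whereas CBF4 is known from drought and abscisic acid, and DDF1 from salinity and gibberellin breakdown. ICE1 is a bHLH factor that is present before stress and binds the CBF3 promoter; it is controlled largely as a protein, by the ligase HOS1, the SUMO ligase SIZ1 and the kinase OST1.

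Whole seedlings were 7 days old, and 3 RNA-seq libraries represented each of 16 groups, 8 treatments in the wild type Col-0 and the same 8 in a bHLH35 mutant in the Col-0 background. Control seedlings were kept at 21 °C under 150 µE of light. Salt (S) was 50 mM in the growth medium from germination on, high light (HL) was 700 µE for 1.5 h and heat (HS) was 33 °C for 1.5 h. The combined groups HL+HS, S+HL, S+HS and S+HL+HS carried those treatments together. No group was treated with cold. The labels give neither the allele nor the number of lines of the mutant, nor how many seedlings were pooled, and nothing there says that the 3 libraries of a group came from separate cultures, so p-values measure the spread between these libraries. Each genotype has its own table, so a difference in level between the genotypes is also one between tables.

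Depth read back from the smallest steps of the values was 19.4 M to 43.8 M fragments, with a median of 24.2 M. Transcripts of the mutated gene (AT5G57150) stood at 23.5 ± 3.66 FPKM (fragments per kilobase of transcript, scaled to library size; SD, n = 3) in Col-0 Control libraries and at 4.62 ± 1.23 FPKM in the mutant, and reached 14.6 FPKM at most in any mutant library, in HL+HS. Markers of root cells (EXPA7, COBL9, CASP1, NRT2.1 and PIN2) moved with salt. Their summed level was 23.2 to 102 FPKM in Col-0 libraries without salt and 81.3 to 167 FPKM with it, and 14.3 to 47.7 against 69.3 to 157 FPKM in the mutant, with NRT2.1 near 0 throughout. Without salt, the Col-0 sum averaged 28.5 FPKM in Control but 59.3 in HL, 50.8 in HS and 73.6 in HL+HS. Mutant Control averaged 14.9 FPKM. Of 32 root marker tests of the mutant against Col-0, 0 were called by limma and 12 had an unadjusted p under 0.05. The summed level of the leaf markers overlapped, at 17744 to 31123 FPKM without and 18587 to 32398 FPKM with salt in Col-0, and overlapped in the mutant too. Seed markers summed to at most 79.7 FPKM, in replicate 3 of Col-0 Control. In whole seedlings, more cells of a type and more RNA per cell cannot be told apart, and the part of the root markers in the salt results was not tested.

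The CBF1, CBF2 and CBF3 genes lie side by side on the minus strand of chromosome 4, each as a single exon. In the RefSeq annotation of TAIR10.1, CBF2 spans chr4:13015250-13016235, CBF3 chr4:13018010-13019400 and CBF1 chr4:13021780-13022996, with 1774 and 2379 bases between them. Their proteins are 87.8% to 88.2% identical, and none of their 150-base windows is shared exactly. How the authors assigned reads that fit more than one of these genes is not given in the sources used here, so reads of closely similar stretches may be split between them, and the sum of CBF1 to CBF3 was therefore tested as well. CBF3 overlaps a long noncoding RNA gene on the opposite strand (AT4G07385) by 29 bases, and use of strand in counting is not given. CBF4 (chr5:21116877-21117860) is 68.7% to 71.1% identical to the tandem members. DDF1 (chr1:4289883-4291017) and DDF2 (chr1:23367394-23368416) are 79.6% identical to each other. ICE1 (chr3:9832667-9835279), with 4 or 5 exons, belongs to another family.

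The promoters of the tandem genes are shown because genes of such similar proteins had unlike transcript levels, and they are set beside those of 2 CBF targets. Each is the 250 bases before the annotated gene start (RefSeq, TAIR10.1), 5′ to 3′ on the gene's strand. CBF1 is read from chr4:13022997-13023246, CBF2 from chr4:13016236-13016485, CBF3 from chr4:13019401-13019650 and COR15A from chr2:17712331-17712580, all on the minus strand, and RD29A from chr5:21240467-21240716 on the plus strand. Capitals mark matches, on either strand, to the evening element AAATATCT, the G-box CACGTG, the CGCG box, the heat shock element GAANNTTC and the CRT/DRE core CCGAC. No matches overlapped in the promoters printed.
CBF1: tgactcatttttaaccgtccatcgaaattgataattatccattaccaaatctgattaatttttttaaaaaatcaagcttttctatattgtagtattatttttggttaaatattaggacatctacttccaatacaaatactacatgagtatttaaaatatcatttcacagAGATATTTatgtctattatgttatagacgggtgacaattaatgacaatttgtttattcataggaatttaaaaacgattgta
CBF2: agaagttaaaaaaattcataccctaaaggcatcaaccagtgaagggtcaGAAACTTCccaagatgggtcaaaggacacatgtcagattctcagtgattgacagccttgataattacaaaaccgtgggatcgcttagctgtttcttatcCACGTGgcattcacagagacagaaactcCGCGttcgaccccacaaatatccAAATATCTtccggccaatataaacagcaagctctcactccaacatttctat
CBF3: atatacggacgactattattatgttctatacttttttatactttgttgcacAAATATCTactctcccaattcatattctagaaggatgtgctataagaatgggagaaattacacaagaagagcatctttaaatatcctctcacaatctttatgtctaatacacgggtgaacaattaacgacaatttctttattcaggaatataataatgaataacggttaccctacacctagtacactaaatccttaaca
COR15A: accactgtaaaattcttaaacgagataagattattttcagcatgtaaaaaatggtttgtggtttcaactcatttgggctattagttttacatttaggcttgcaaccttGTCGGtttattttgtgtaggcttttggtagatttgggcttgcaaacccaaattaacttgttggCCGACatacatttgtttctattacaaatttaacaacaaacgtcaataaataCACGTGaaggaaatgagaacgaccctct
RD29A: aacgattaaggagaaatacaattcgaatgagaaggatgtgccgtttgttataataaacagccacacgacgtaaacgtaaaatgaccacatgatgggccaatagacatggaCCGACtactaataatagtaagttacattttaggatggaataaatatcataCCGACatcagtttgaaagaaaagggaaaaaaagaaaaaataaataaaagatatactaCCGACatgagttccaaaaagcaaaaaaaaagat
An evening element stood in all 3 tandem promoters, 81 bases before the start of CBF1, 51 before CBF2 and 199 before CBF3, and in no other member. It occurs in 4.8% of 27444 promoters of this length. CBF2 alone of the tandem genes also held a G-box, a CGCG box (the letters bound by CAMTA factors) and a heat shock element, which occur in 6.5%, 10.1% and 9.6% of promoters. The CRT/DRE core, the site that CBF proteins bind, was in 0 of 7 member promoters and in 5 of 13 target promoters, against 12% of all promoters. COR15A held 2 such cores and RD29A held 3. A match is a run of letters in this window and says nothing about binding. The annotated transcripts span 986 bases for CBF2, 1217 for CBF1 and 1391 for CBF3, for proteins of 213 to 216 residues. The windows of the tandem genes may thus lie at unlike distances from the coding start.

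**Figure D1:**
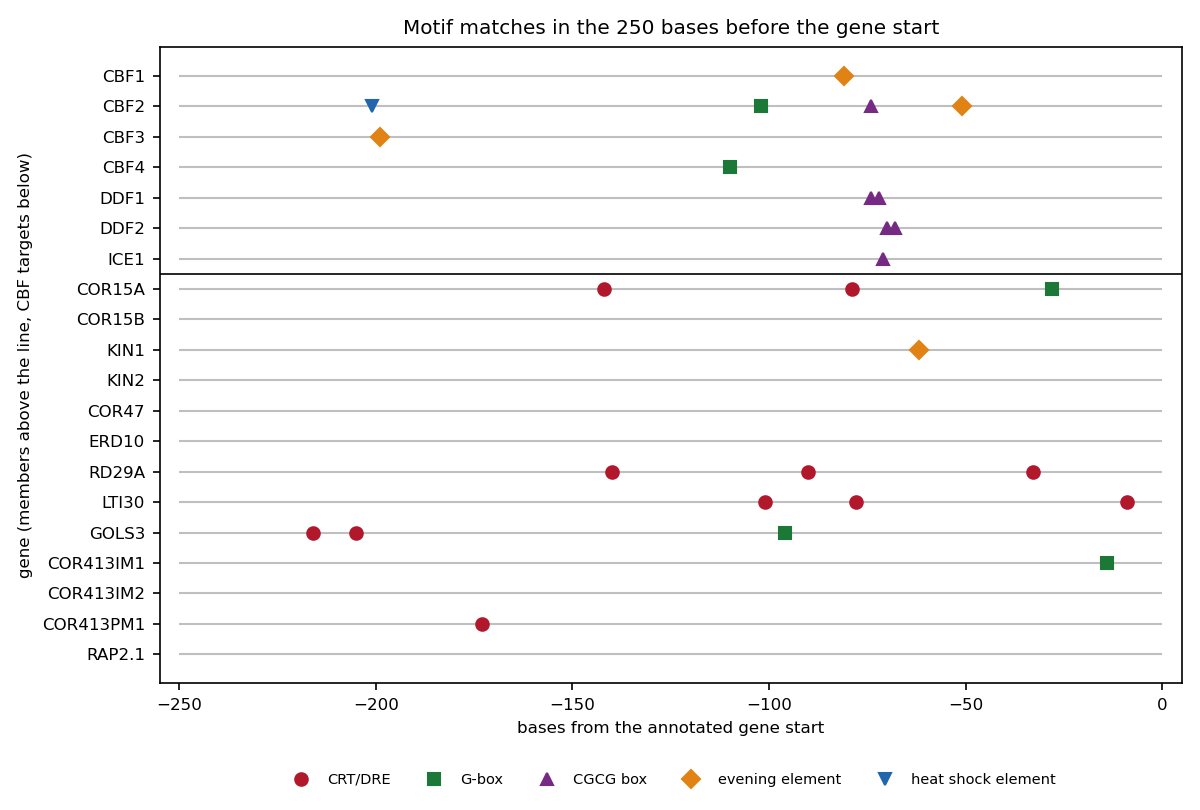
Matches to the 5 motifs within the 250 bases before the gene start (x axis, bases relative to the start) for the members and the 13 CBF targets (rows). The evening element appears in CBF1, CBF2 and CBF3, and the CRT/DRE core appears among the targets only.

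Transcripts of the tandem genes were scarce in these uncooled seedlings, and CBF2 was the most abundant of them. CBF2 was detected in all 48 libraries, with 4 to 358 fragments (median 43), CBF3 in 45 and CBF1 in 39. Median levels over the libraries were 2.7 FPKM for CBF2, 0.724 FPKM for CBF3 and 0.288 FPKM for CBF1. Within libraries the median percentile among all genes was 51.4 for CBF2, 40.8 for CBF3 and 36.8 for CBF1. CBF4 was detected in 20 libraries, with at most 35 fragments, DDF1 in 8 with at most 5, and DDF2 in 3, all of the mutant under salt. ICE1 was of another order, at 17.2 to 31.1 FPKM in all 48 libraries with a median percentile of 82.3. Genes were tested where at least 3 libraries of the fit reached 1 FPKM, which kept CBF2, CBF3 and ICE1 in Col-0 and also CBF1 in the mutant. CBF3 in Col-0 and CBF1 in the mutant reached that level in libraries with salt only. A fold change here is a difference of means of log2(FPKM + 1), which understates changes of genes this low.

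**Figure D2:**
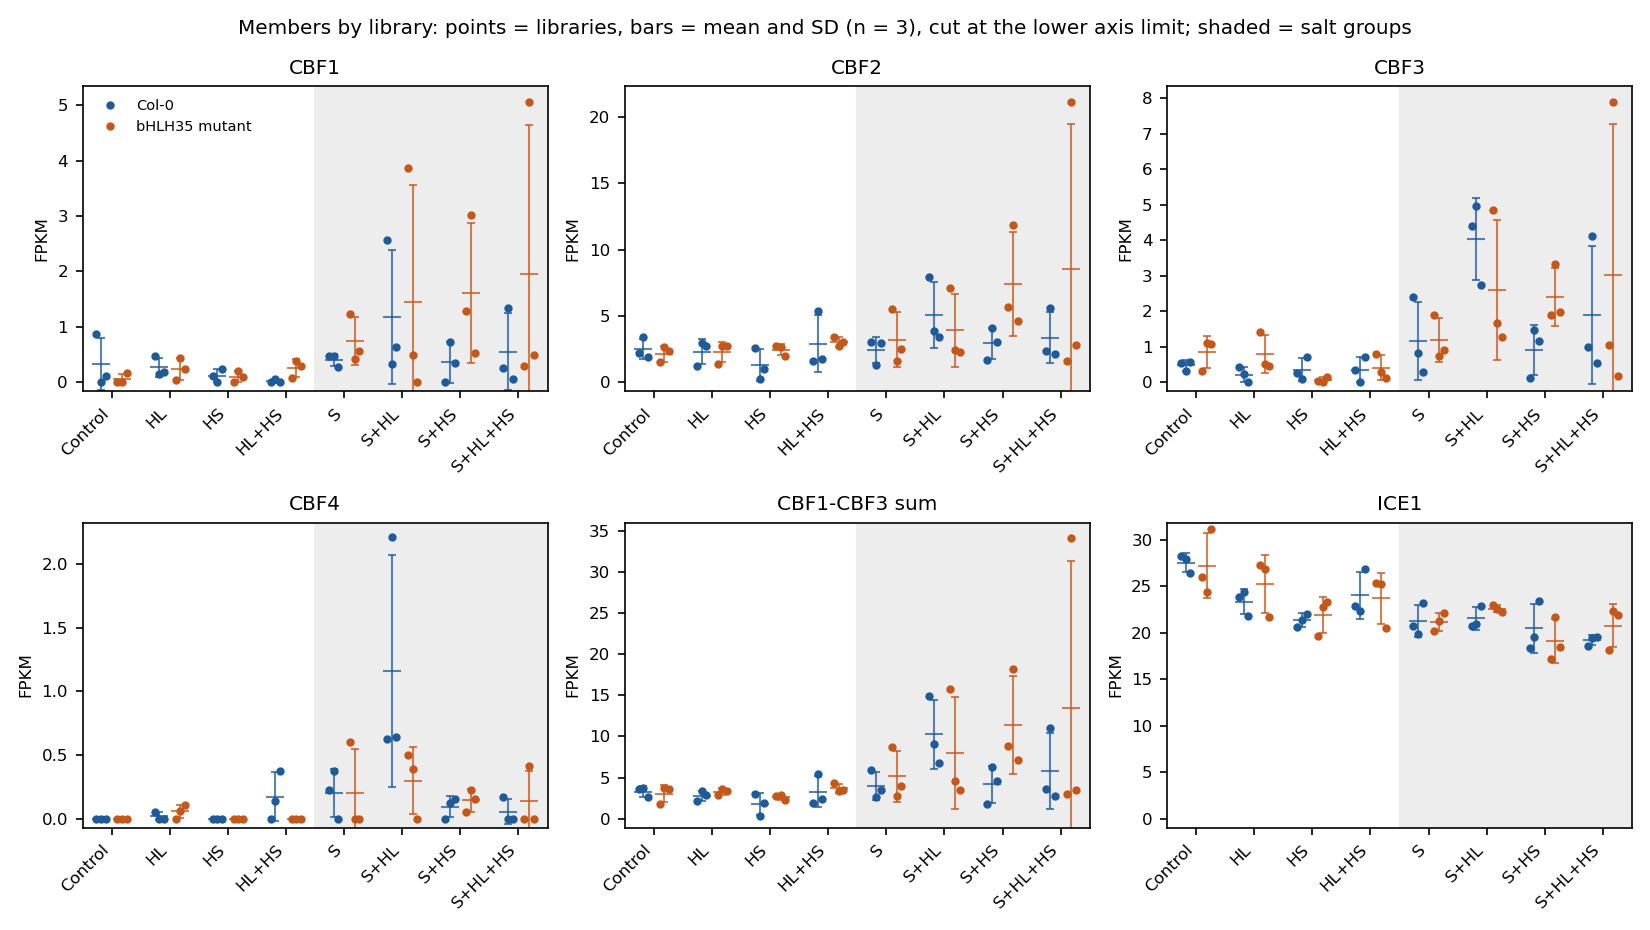
Level (FPKM) of CBF1, CBF2, CBF3, CBF4, the CBF1 to CBF3 sum and ICE1 in every library, by treatment and genotype; points are libraries, bars mean ± SD (n = 3), and shading marks the groups with salt. CBF3 is highest in S+HL in Col-0 at 2.74 to 4.96 FPKM, and ICE1 stays within 17.2 to 31.1 FPKM.

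CBF1 was too low to be tested in Col-0. Of CBF2 and CBF3, only CBF3 was called against Control, in salt with high light. It stood at 0.546, 0.307 and 0.570 FPKM in the Control libraries and at 4.4, 4.96 and 2.74 FPKM in S+HL. All 3 S+HL libraries lay above every Control library, and above every Col-0 library without salt. The ratio of means was 8.51, and the log2 change was 1.75 (SE 0.40, adjusted p = 0.00188). This was called under each of the 7 alternative settings that kept the gene and without each of the 24 libraries, at log2 changes of 1.61 to 2.84. Yet CBF3 passed the filter in Col-0 through salt libraries only, those of S+HL among them. The adjusted p therefore describes these libraries, and refits of the same values are no independent support. In S, CBF3 was at 2.39, 0.819 and 0.275 FPKM, and in HL at 0.427, 0.216 and 0 FPKM, and neither group was called. S+HS, at 0.104, 1.46 and 1.16 FPKM, and S+HL+HS, at 0.980, 4.13 and 0.552 FPKM, overlapped with Control. The S+HL+HS mean of 1.89 ± 1.95 FPKM was carried by 1 library.

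CBF2, the most abundant of the tandem, was not called in any Col-0 treatment. Its Control libraries held 2.22, 3.38 and 1.9 FPKM and its S+HL libraries 7.95, 3.84 and 3.41 FPKM. The 3 S+HL libraries were just above all of Control, with a ratio of means of 2.03, but the log2 change of 0.74 gave an adjusted p of 0.182. CBF1 was too low to be tested in Col-0, and its highest library, at 2.56 FPKM, was replicate 1 of S+HL, where the other 2 held 0.327 and 0.633 FPKM. For the sum of CBF1 to CBF3, S+HL gave 14.9, 9.13 and 6.79 FPKM, all above Control at 3.30 ± 0.625 FPKM, with a log2 change of 1.34 (SE 0.45, adjusted p = 0.0251). That call was lost with a pseudocount of 0.1 (adjusted p = 0.0558) and without S+HL replicate 1 (0.112), S+HL replicate 2 (0.052) or Control replicate 3 (0.081).

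Counted over the treatments of Col-0, 6 of the 21 tests of a member against Control were called, 1 of CBF3 and 5 of ICE1, and 7 reached an unadjusted p under 0.05. The share of all tested genes called was 44.9% for S+HS, 39.9% for S+HL+HS, 36% for S+HL, 31.3% for HL+HS, 30.8% for HS, 18.7% for S and 17.7% for HL. In the mutant 3 of 28 tests were called, all of ICE1, with 7 at an unadjusted p under 0.05. The shares of all genes there were 44.4% for S+HS, 44.3% for S+HL+HS, 38% for S+HL, 35.4% for HL+HS, 28.9% for HS, 26.6% for S and 17.4% for HL. The tested CBF genes were called in 1 of 14 Col-0 tests and 0 of 21 mutant tests, below those shares. Changes of genes this low are understated on the scale used, so these counts do not show a weaker response than that of other genes.

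In the fit of all mutant libraries no single tandem gene was called in S+HS, where 44.4% of all genes were. All 3 were higher in every S+HS library than in any Control library, and replicate 2 was the highest for each. The share of all genes set apart in this way was not counted. CBF2 stood at 1.49, 2.62 and 2.32 FPKM in Control and at 5.69, 11.9 and 4.58 FPKM in S+HS. The groups did not overlap, and the log2 change of 1.34 gave an adjusted p of 0.0556. CBF1 was at 0, 0 and 0.157 FPKM in Control and at 1.29, 3.01 and 0.535 FPKM in S+HS, also without overlap (log2 1.20, adjusted p = 0.0635). CBF3 was at 0.321, 1.11 and 1.09 FPKM in Control and at 1.9, 3.33 and 1.96 FPKM in S+HS, again all above Control, and was not called. Their sum was 8.88, 18.2 and 7.08 FPKM in S+HS against 3.04 ± 1.07 FPKM in Control (log2 1.55, SE 0.61, adjusted p = 0.0432). The call of the sum was lost without the filter on low values (adjusted p = 0.0692), with median-of-ratios scaling (0.059), and without any one of the Control (0.141, 0.0603 and 0.0647 for replicates 1 to 3), S+HS replicate 1 (0.0641) or 2 (0.176), and HL+HS replicate 3 (0.0501) libraries. The SE of these tests was pooled over all mutant groups. Without replicate 2 of S+HL+HS, which is in neither group compared, limma called CBF1 (adjusted p = 0.0241), CBF2 (0.00611) and CBF3 (0.0398) in S+HS. No other left-out library gave calls of all 3 genes. A fit of Control and S+HS alone called CBF2 (0.0077) and CBF3 (0.0243) but not CBF1. In S+HL, CBF3 was at 4.85, 1.66 and 1.27 FPKM, all above Control, with a log2 change of 0.87 and an adjusted p of 0.188.

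1 mutant library stood far from its group in all 3 tandem genes. Replicate 2 of S+HL+HS held 5.06 FPKM of CBF1, 21.2 FPKM of CBF2 and 7.89 FPKM of CBF3, each the highest of all 48 libraries. The other 2 libraries of that group held 0.298 and 0.482 FPKM of CBF1, 1.61 and 2.79 FPKM of CBF2, and 1.04 and 0.162 FPKM of CBF3. The group's summed level of 13.5 ± 17.9 FPKM therefore describes no typical library, and without replicate 2 the group overlapped with Control in all 3 genes except CBF1. Across the 16 groups, the same library was the highest of its group for CBF1, CBF2 and CBF3 in 6, all of them groups with salt. It was replicate 2 in S+HS and S+HL+HS of both genotypes, and replicate 1 in mutant S and S+HL. In Col-0 S+HL+HS, replicate 2 held 1.338, 5.593 and 4.126 FPKM of CBF1, CBF2 and CBF3. Replicates 1 and 3 there held at most 0.251, 2.365 and 0.98 FPKM of these genes. Whether the replicate numbers mark a shared batch was not tested.

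Averaged over the 4 pairs of groups that differ only in salt, CBF3 rose with salt in both genotypes. This average was chosen after the values had been seen. CBF3 in Col-0 and CBF1 in the mutant also passed the filter through salt libraries only. Their adjusted p-values for salt therefore describe these libraries and are no independent support. The log2 change of CBF3 was 0.96 (SE 0.20, adjusted p = 0.000617) in Col-0 and 0.95 (SE 0.25, adjusted p = 0.00338) in the mutant. CBF1 rose by 0.84 in the mutant (SE 0.26, adjusted p = 0.00922). CBF2 missed the threshold, at 0.47 in Col-0 (adjusted p = 0.0746) and 0.65 in the mutant (adjusted p = 0.0537). The sum of the 3 rose by 0.80 (SE 0.23, adjusted p = 0.0067) and 0.97 (SE 0.30, adjusted p = 0.0109). These salt calls of CBF1, CBF3 and the sum were kept under every alternative that could be run for them and without each library. Refits of the same libraries do not undo a choice made after the values were seen, so this adds no independent support.

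By library, 9 of the 12 Col-0 salt libraries held more CBF3 than the highest of the 12 without salt, as did 7 of 12 in the mutant. The 4 salt groups had the 4 highest mean levels of CBF3 in both genotypes, although neighbouring groups in that order overlapped everywhere. For CBF1 the count was 2 of 12 in Col-0 and 9 of 12 in the mutant, and for CBF2 it was 2 and 6. Salt averages are common among all genes: 45.9% were called in Col-0 and 54.4% in the mutant, and the median gene moved by 0.11 and 0.15 on the log2 scale. Median-of-ratios scaling shifted that median by -0.11 and -0.15. The root markers listed before rose with salt in the same libraries, by 4 of 4 tested genes in each genotype, and their part in these changes was not tested.

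**Figure D3:**
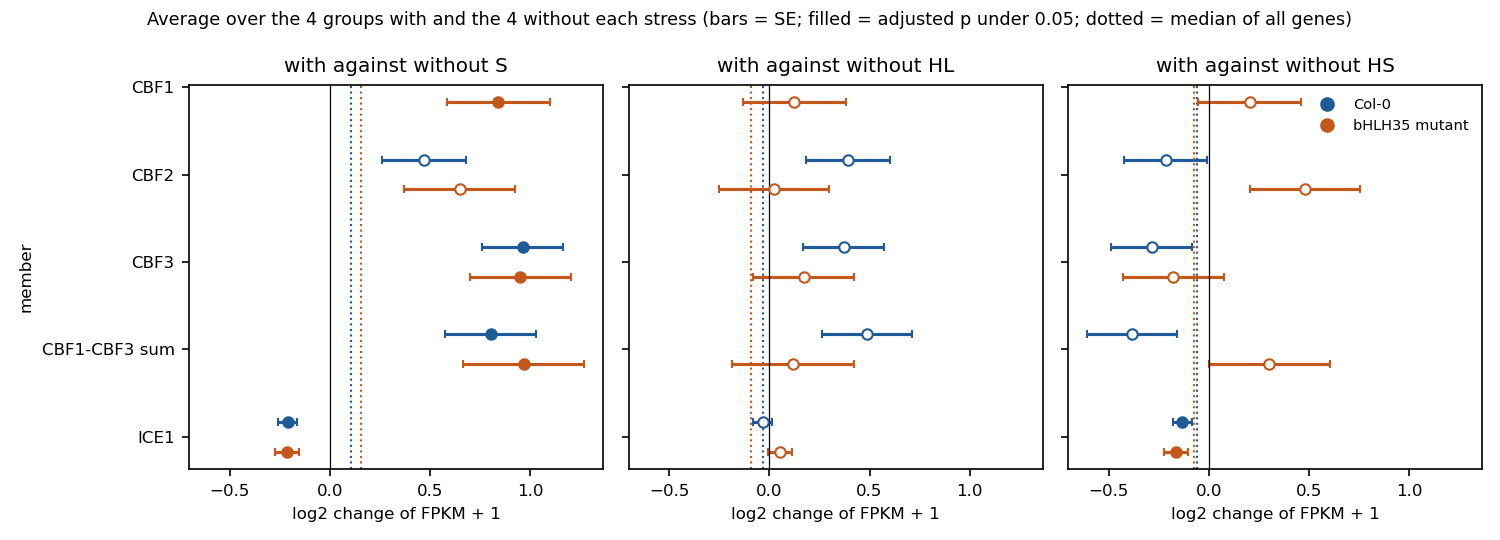
Average difference (log2 of FPKM + 1) between groups with and without salt, high light or heat for each tested member and the CBF1 to CBF3 sum, with SE; filled points have an adjusted p under 0.05 and the dotted line is the median of all genes. CBF3 lies at 0.96 and 0.95 for salt, and ICE1 lies below 0 for salt and heat in both genotypes.

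No tandem gene was called for the average effect of high light or of heat. For the HL average, 0 tested members were called in either genotype, while 27.8% of all Col-0 genes and 36.6% of mutant genes were. For heat the only member called was ICE1, among 47.4% and 47% of all genes. In all, 3 of 9 member averages were called in Col-0 (4 at an unadjusted p under 0.05) and 4 of 12 in the mutant (5 at an unadjusted p under 0.05). CBF3 stood low under heat alone in the mutant, at 0.041, 0 and 0.157 FPKM, all below Control, and was called there only with a pseudocount of 0.1 (log2 -2.46, adjusted p = 0.0407).

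When one stress was added to another, CBF3 again gave the calls among the single CBF genes. In Col-0, S+HL exceeded HL alone by 2.04 on the log2 scale (adjusted p = 0.00197), and this was called under each of the 7 alternative settings that kept the gene and without each library. CBF3 passed the filter in Col-0 through salt libraries only, so the Col-0 calls here are no independent support. S+HL exceeded S alone by 1.31 (SE 0.40, adjusted p = 0.0374), and here the S library at 2.39 FPKM came close to the lowest S+HL library. That call was lost with a pseudocount of 0.1 (adjusted p = 0.178) and without the filter (0.0538). It was also lost without S+HL replicate 1 (0.0878) or 2 (0.151), or S replicate 2 (0.112) or 3 (0.196). In the mutant, S+HS exceeded HS by 1.65 (SE 0.50, adjusted p = 0.0212) in CBF3, and this was lost without HS replicate 2 (0.0526) or S+HS replicate 2 (0.0872). The sum of CBF1 to CBF3 was also called for S+HL against HL in Col-0 and for S+HS against HS in the mutant. The Col-0 call was lost with a pseudocount of 0.1 and was kept in 19 of 24 fits with 1 library left out. The mutant call was kept in 6 of 24 such fits and under 4 of 8 alternative settings. Leaving the sum aside, 3 of 27 member tests of an added stress were called in Col-0 and 1 of 36 in the mutant. Of these tests, 5 and 3 had an unadjusted p under 0.05, beside 15.4% and 16.6% of all gene tests called.

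A combination was also compared with the sum of its single log2 changes, and no member was called as departing from that sum. On the level scale this sum is a product of the fold changes of FPKM + 1. In Col-0 the smallest unadjusted p was that of ICE1 in HL+HS, whose level was higher than the sum by 0.39 on the log2 scale (SE 0.13, unadjusted p = 0.00884, adjusted p = 0.0733 by limma). CBF3 in S+HL was higher than the sum by 1.60 (SE 0.57, unadjusted p = 0.0107, adjusted p = 0.403 by limma). Of 12 member tests in Col-0, 0 were called and 4 had an unadjusted p under 0.05, and of 16 in the mutant both counts were 0. Over all genes 3.05% and 1.86% of such tests were called.

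CBF4, the drought-linked member, was listed at 0 in all 3 Col-0 Control libraries and was highest in S+HL, the same group as CBF3. There it reached 0.626, 2.21 and 0.641 FPKM, from 12, 35 and 9 fragments. These lay above every other Col-0 library, the next being 0.378 FPKM in both S and HL+HS. Only 1 library reached 1 FPKM, so CBF4 failed the filter. Without a filter its S+HL change against Control was 1.03 (SE 0.19, adjusted p = 0.000419 by limma), beside 29.1% of all genes called in that fit. That SE was pooled over all Col-0 groups, and 13 of the 24 libraries held 0. The S+HL libraries themselves had an SD of 0.91 FPKM, so this p does not measure their spread. In the mutant the S+HL libraries held 0.504, 0.391 and 0 FPKM and overlapped with S at 0.602, 0 and 0 FPKM. DDF1 peaked at 0.213 FPKM in Col-0 S+HL replicate 1. DDF2, its closest relative, was found at 0.587 and 0.091 FPKM in 2 mutant S libraries and at 0.196 FPKM in 1 of S+HL, too low to compare.

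ICE1, the upstream activator, fell slightly in most stresses. In Col-0 the Control libraries held 28.3, 28 and 26.4 FPKM and the S+HL+HS libraries 18.6, 19.4 and 19.6 FPKM. The groups were well apart, and the log2 change was -0.50 (adjusted p = 0.000315). ICE1 also fell in S+HS (-0.42, adjusted p = 0.00131), HS (-0.35, adjusted p = 0.00756), S+HL (-0.34, adjusted p = 0.0079) and S (-0.36, adjusted p = 0.0108). The call in S was lost without S replicate 2 (adjusted p = 0.0639), and the other 4 were kept without each library. HL (-0.23, adjusted p = 0.1) and HL+HS (-0.19, adjusted p = 0.127) were not called. In S+HL, CBF3 and ICE1 thus moved in opposite directions in the same 3 libraries, where ICE1 held 20.7, 21 and 22.9 FPKM.

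In the mutant ICE1 stood at 26, 24.4 and 31.1 FPKM in Control and at 17.2, 21.7 and 18.4 FPKM in S+HS, without overlap (log2 -0.49, adjusted p = 0.00289). That call was kept without each library. It also fell in S+HL+HS (-0.37, adjusted p = 0.0175), which was lost without S+HL+HS replicate 1 (0.1) or Control replicate 3 (0.104). In S the change was -0.34 (adjusted p = 0.0438). The S call was lost without any one of 9 libraries at adjusted p of 0.05 to 0.202, namely Control replicates 1 and 3, all 3 of S, S+HL replicates 2 and 3, and replicate 3 of S+HS and of S+HL+HS. It was also lost when libraries were scaled to a common sum (-0.29, adjusted p = 0.0878) and with moderation without a trend (0.0521). On average over the salt pairs ICE1 fell by 0.21 in both genotypes (adjusted p = 0.00122 and 0.00546). The heat averages of -0.13 and -0.16 (adjusted p = 0.0265 and 0.0322) were lost with median-of-ratios scaling (0.122 and 0.143) and without single libraries. In Col-0 these were S+HS replicate 1 (0.0529), HL+HS replicate 2 (0.0514) and S replicate 3 (0.0534). In the mutant they were HL replicates 1 and 2, S+HS replicates 1 and 3, HS replicate 1, S+HL+HS replicate 1, and replicate 3 of Control, HL+HS and S (0.0519 to 0.0664). Adding salt to HL+HS in Col-0 lowered ICE1 (log2 -0.30, adjusted p = 0.0315), a call lost in the fit of those groups alone (0.0832) and without any S+HL+HS library (0.0938, 0.0668 and 0.0677) or HL+HS replicate 3 (0.121).

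The bHLH35 mutant was compared with Col-0 within each treatment. None of 32 member tests was called by limma, and 1 had an unadjusted p under 0.05, beside 0.136% of all gene tests called. That one was CBF2 in S+HS, at 5.69, 11.9 and 4.58 FPKM in the mutant and 1.67, 4.06 and 3.03 FPKM in Col-0. The groups did not overlap, the mutant being higher by 1.05 on the log2 scale (SE 0.51, unadjusted p = 0.0477, adjusted p = 1 by limma). Differences between the genotypes' responses to stress were called for 0 of 28 member tests, with 0 at an unadjusted p under 0.05, beside 0.00401% of all gene tests. With 3 libraries a group and CBF levels this variable, a p above the threshold does not show that the genotypes were alike.

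The 13 CBF targets, COR and related genes known to depend on CBF factors, included many that rose where no CBF gene was called. The list was drawn up with earlier results of these data known. In Col-0, 11 rose and 0 fell under S+HL, 10 and 0 under HL, 10 and 1 under S, 9 and 1 under S+HL+HS, 8 and 2 under S+HS, 7 and 0 under HL+HS, and 4 and 1 under HS. The mutant counts in the same order were 10 and 0, 8 and 0, 9 and 1, 10 and 2, 9 and 2, 5 and 2, and 4 and 2. The median log2 change of the list was highest for S+HL, at 2.89 in Col-0 and 2.40 for the mutant. The medians of all genes there were 0.09 and 0.11, and 36% and 38% of genes were called.

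COR15A, which encodes a chloroplast protein that protects membranes, was at 1.25, 1.97 and 1.23 FPKM in Col-0 Control and at 140, 339 and 195 FPKM in S+HL. That is a ratio of means of 152 and a log2 change of 6.42. HL alone gave 27.7, 24.6 and 21.4 FPKM, and S alone 22.9, 11.4 and 9.34 FPKM, all above Control. HS, at 1.61, 2.95 and 2.62 FPKM, overlapped with Control. In the mutant, S+HL gave 219, 123 and 163 FPKM against 1.39, 1.18 and 1.87 FPKM in Control. S+HL was the group with the highest COR15A in both genotypes and, in Col-0, also the group with the highest CBF3 and CBF4. In HL, by contrast, COR15A rose in both genotypes (log2 3.37 and 3.26) while no tested CBF gene was called.

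**Figure D4:**
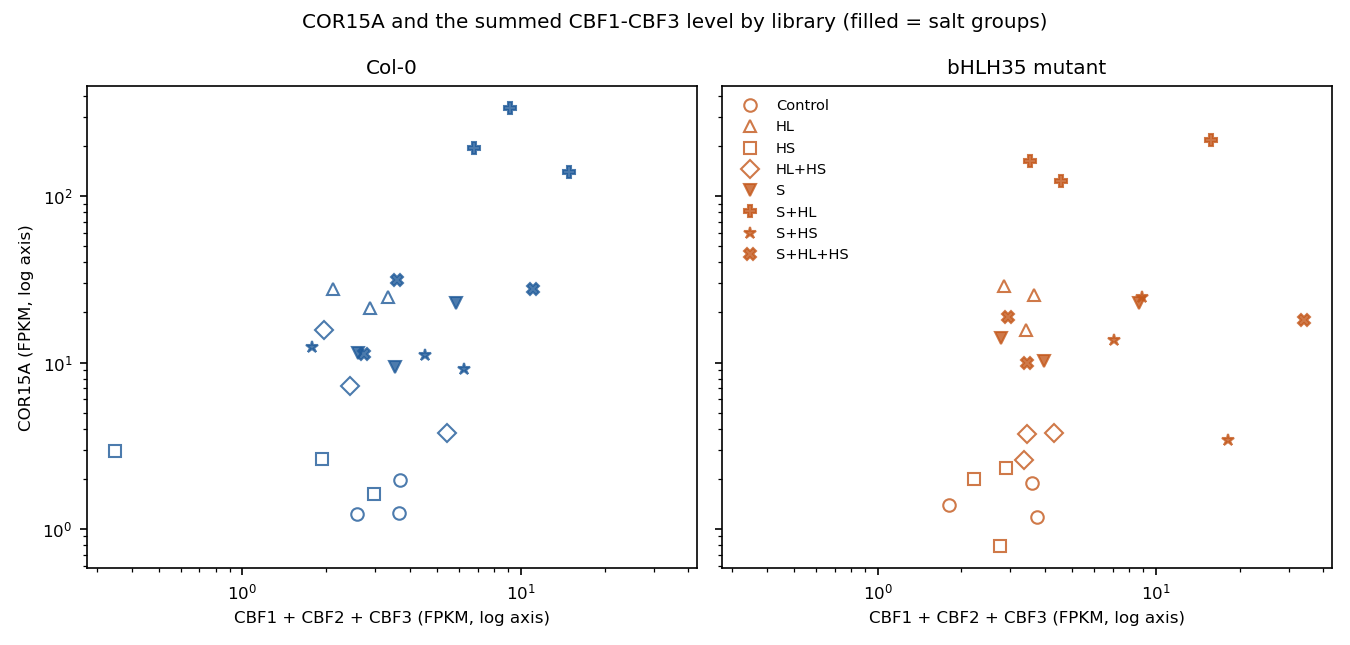
COR15A (y axis, FPKM, log scale) against the summed level of CBF1 to CBF3 (x axis, FPKM, log scale) in each library, by treatment and genotype. The S+HL libraries lie highest at 123 to 339 FPKM of COR15A, and the library with the largest CBF sum, at 34.1 FPKM, is a mutant S+HL+HS library with 17.9 FPKM of COR15A.

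Other targets were called in other sets of stresses. KIN1 and KIN2, and likewise COR15A and COR15B, are close relatives between which reads may be split. KIN1 (a small hydrophilic cold-induced protein), KIN2, and the dehydrins COR47 and ERD10 rose in all 7 treatments in both genotypes. KIN1 was at 0.535, 1.51 and 0.645 FPKM in Col-0 Control, 33.8, 26.5 and 18.2 FPKM in HS and 82.4, 169 and 163 FPKM in S+HL, whereas COR15A was not called in HS. RD29A, a widely used stress reporter, rose by 4.89 in S+HL in Col-0 and by 4.18 in the mutant, and was not called in HS. COR413IM1, a chloroplast membrane protein, fell in S (-1.04), HS (-0.99) and S+HS (-1.67) in Col-0 and rose in S+HL (1.25). It departed there from the sum of the single log2 changes by 2.42 (adjusted p = 0.0394 by limma), and in the mutant by 2.2 (adjusted p = 0.0557). In the mutant its S+HL change against Control of 0.14 was not called. RAP2.1, a DREB-family repressor within the regulon, was called in no treatment of either genotype.

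Several targets fell short of the sum of the single log2 changes when heat and light were combined. A gene that rises in both single stresses and whose FPKM gains simply add up also falls short on this scale. In Col-0 this departure in HL+HS was called for COR15A (-2.00), KIN1 (-2.86), KIN2 (-1.51), COR47 (-1.12), ERD10 (-2.33) and RD29A (-1.75), while 1926 of 20743 genes were called in all. In the mutant it was called for COR15A (-2.53) and ERD10 (-1.72), with 834 of 20675 genes called, and missed the threshold for KIN1 (-1.64, adjusted p = 0.13), KIN2 (-0.79, 0.0724), COR47 (-0.80, 0.307) and RD29A (-1.18, 0.209). No difference between the genotypes was called among the 104 tests of target level or the 91 of target response, and 8 and 6 had an unadjusted p under 0.05. Salt averages rose for 10 of 13 targets in Col-0 with 0 falling, and for 10 in the mutant with 1 falling.

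**Figure D5:**
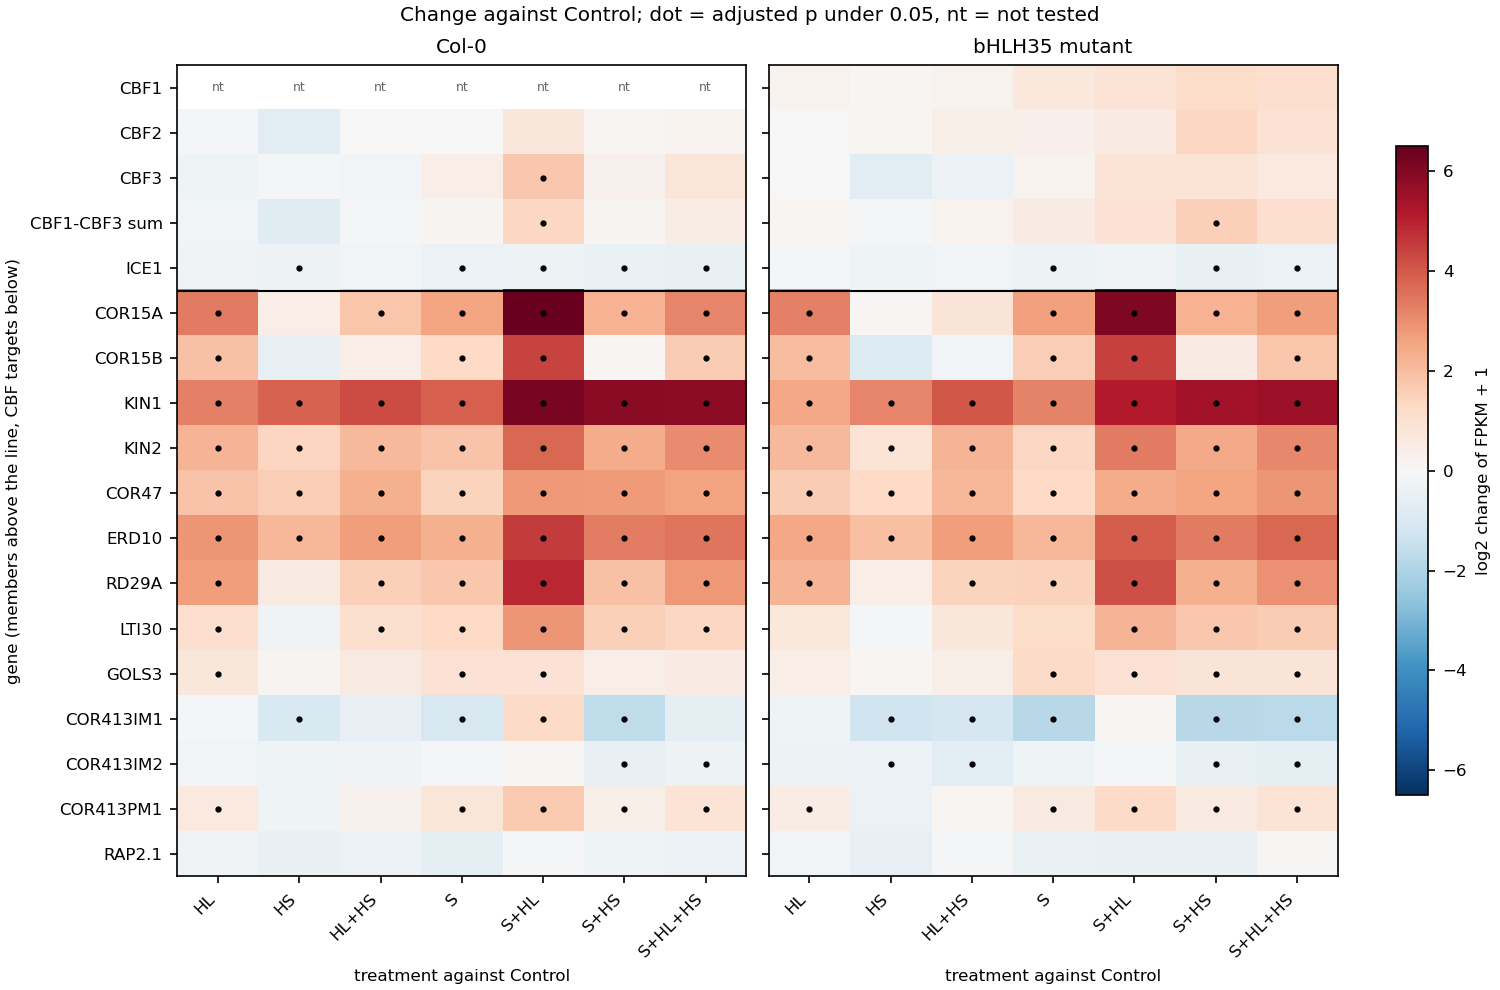
Change against Control (colour, log2 of FPKM + 1) of the members and the 13 CBF targets in each treatment and genotype; a dot marks an adjusted p under 0.05 and nt a gene that was not tested. KIN1, KIN2, COR47 and ERD10 carry a dot in every column, while among the CBF genes only CBF3 in Col-0 S+HL does.

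Of the 25 listed regulators of CBF genes, more fell than rose in every group except mutant HL. All 25 were tested, and in Col-0 5 rose and 10 fell under S+HL, 3 and 10 under S+HL+HS, 3 and 10 under HS, 3 and 8 under S+HS, 4 and 7 under HL+HS, 3 and 5 under HL, and 0 and 5 under S. The mutant gave, in that order, 3 and 12, 5 and 9, 3 and 11, 3 and 8, 3 and 12, 4 and 4, and 1 and 8. The 5 called in Col-0 S stood beside 18.7% of all genes, so that share was close to the background. Among all genes, more were higher than lower in every group with salt (4817 and 2655 in Col-0 S+HL), and more were lower than higher in HS (3113 higher and 3266 lower in Col-0) and HL+HS (2479 and 4020). LHY, a morning factor of the circadian clock, fell in all 7 treatments of both genotypes. Its Col-0 Control libraries held 85.9, 74.6 and 75.9 FPKM and its S+HS libraries 15, 10.2 and 11.1 FPKM, a log2 change of -2.62. The labels do not give the time of day of harvest.

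Other clock genes did not all follow LHY. CCA1, its closest relative, rose in HL+HS (1.16 in Col-0 and 1.26 in the mutant), and PRR9, a pseudo-response regulator, rose in HL (1.22 and 1.12). RVE8, a MYB-like clock factor, and SOC1, a flowering factor known to repress CBF genes, each fell in 6 of 7 treatments in both genotypes, all except HL. ICE2, the paralogue of ICE1, fell in 5 treatments of Col-0 and all 7 of the mutant. It went from 22.9 ± 3.32 FPKM in Control to 9.56 ± 1.7 FPKM in S+HS in Col-0, a log2 change of -1.18.

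Genes that act on the ICE1 protein moved little. OST1, the kinase that stabilises ICE1, rose in S+HL (0.60 in Col-0, 0.51 in the mutant), S+HS and S+HL+HS. HOS1, the ligase that marks ICE1 for degradation, fell in both genotypes in the 3 groups with heat and another stress, at -0.30 to -0.48 on the log2 scale. SIZ1 was called once, in the mutant in HL+HS (-0.26). CAMTA3, a calmodulin-binding activator known to bind the CGCG box of CBF2, fell in 5 treatments of Col-0 and 4 of the mutant, at -0.31 to -0.54. MPK3, a kinase that acts against ICE1, fell in 5 treatments of each genotype. PIF4, a bHLH factor of warm-temperature growth and a repressor of CBF genes, rose in HS in both genotypes (0.94 in the mutant).

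Factors induced early in the cold in parallel with CBFs split in both directions. In Col-0 S+HL, 5 of 9 rose and 1 fell, among them ZAT6 (1.96) and ZAT12 (1.13), zinc finger factors, while RAV1 fell by 1.87 on the log2 scale, beside 36% of all genes called. In S alone RAV1 was the 1 called in Col-0, where 18.7% of all genes were called. In the mutant, where 26.6% were, RAV1 fell (-1.11) and ERF5 (1.42) and DEAR1 (1.29), both AP2/ERF factors, rose. The DREB2 factors are the heat- and drought-linked relatives of the CBFs. DREB2A rose in every treatment except S in both genotypes, with 1.86 in Col-0 S+HL. DREB2C rose most in S+HS, by 1.87 and 2.21, whereas DREB2D fell there, at -1.30 and -1.53. GA2OX7, the gibberellin-inactivating gene known as a DDF1 target, was too low to test, with group means of at most 0.291 FPKM, and GA2OX6, of the same family, rose in S+HL by 1.45 and 1.55.

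The genes most like each tested member were ranked by Pearson's r of log2(FPKM + 1) over the 24 Col-0 libraries among 19183 genes, which share treatment groups and depth, and r was then read in the mutant. For CBF3 the 5 closest were NUDT24 (r = 0.847, and 0.541 in the mutant), STY8 (0.847 and 0.726), SIP3 (0.839 and 0.78), HSFA6B (0.838 and 0.784) and UCP5 (0.837 and 0.707). For CBF2 they were MOT2 (0.777 and 0.596), AT5G66650 (0.754 and 0.29), MTM1 (0.753 and 0.643), AT2G36220 (0.745 and 0.352) and ML5 (0.732 and 0.372). For ICE1 they were G6PD4 (0.841 and 0.673), AT3G57750 (0.84 and 0.449), AT4G19820 (0.827 and 0.663), MPK12 (0.823 and 0.728) and AT2G23840 (0.823 and 0.73). No CBF gene was among the 5 closest to another member.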

How the data were processed

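The authors deposited 1 table of FPKM per genotype. RNA was sequenced on an Illumina NovaSeq as paired 150-base reads, per the labels' protocols and the series' design text, which names Trim Galore 0.6.4 and FastQC 0.11.9. HISAT2 2.2.1 and the genome build TAIR10 stand in the submitters' processing notes. The annotation, the FPKM tool and the use of strand are not given in the sources used here. The members and gene lists were chosen with earlier results of these data known.

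Genes with at least 1 FPKM in 3 libraries were fitted with limma 3.58.1 (R 4.3.3) on log2(FPKM + 1), with a mean-variance trend: 20743 genes in Col-0, 20675 in the mutant and 21359 jointly for the genotype comparisons. P-values were adjusted over all genes of a fit by Benjamini-Hochberg, with a threshold of 0.05. Fragment numbers were recovered from the steps of low values, 93.9% to 97.0% of which came out whole within 0.15. The fit was tested on simulated data. Sequences and positions came from RefSeq, TAIR10.1, matched by locus, for all 7 members and 88 of 88 list genes. Named genes were the members, up to 4 called genes per direction of each list, and the 5 most like each tested member, with further list genes chosen after their values were seen. Alternatives were other pseudocounts, filters, scalings and groups fitted, a replicate block, and leaving out each library.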

Additional observations from a re-analysis of the deposited data

How the results depend on the processing

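No member result reversed under any setting. Of 26 called results of members and of the CBF1 to CBF3 sum, 17 stayed called under every alternative setting and 14 without each single library. With 1 library left out, member calls against Control ranged from 5 to 7 in Col-0 and 1 to 6 in the mutant. Added-stress calls ranged from 2 to 4 and 0 to 3, and factor averages from 2 to 4 and 3 to 5. Departures and genotype comparisons stayed at 0. Against Control, target calls ranged from 59 to 67 and 58 to 65, and calls of the sum from 1 to 3. Without the filter, added-stress calls in Col-0 were 5 (main 3). With genes of mean FPKM of at least 5 only, they were 1 in Col-0 and 0 in the mutant, and factor averages in the mutant were 2. A pseudocount of 0.1 gave 7 mutant calls against Control and a fit of the contrasted groups gave 5, against 3, and the latter gave 2 added-stress calls against 1. Median-of-ratios scaling gave 4 added-stress calls in the mutant and 1 departure in Col-0 (ICE1 in HL+HS, 0.49, adjusted p = 0.0259). In tests against Control the sum was called 1 time, against 2, with a pseudocount of 0.1, without the filter and with median-of-ratios scaling. The strict filter left out the CBF genes, and the cause of the other shifts was not tested.

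Over all tested genes, same-numbered libraries did not vary together (median r 0.003 for Col-0, 0.014 for the mutant). Such a value over all genes cannot show whether single genes pair by number. For CBF1, CBF2 and CBF3, replicate 2 was the highest library in S+HS and S+HL+HS of both genotypes. Whether the numbers mark a shared batch was not tested. With the replicate block, members were called 6 and 3 times against Control and 2 and 1 times for an added stress. They were called 0 times for departures and genotype comparisons, and 3 and 4 times for factor averages. Against Control, targets gave 63 and 65 calls and the sum 2. CBF3 in S+HL against S in Col-0 then had an adjusted p of 0.0502. At 4 to 358 fragments per library for CBF2, and fewer for CBF1 and CBF3, depth limits these comparisons.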
